A study of Saccharomyces cerevisiae with 6 samples.

Results

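In the count files, 5 rows, YFL032W, YAL056C-A, YAL042C-A, YNL043C and YLR101C, were taken as readings of genes of the endoplasmic reticulum (ER) and the secretory pathway, out of 7127 features in all. They were chosen by name, as open reading frames listed as lying opposite HAC1, CNE1, ERV46, YIP3 and ERG27. The libraries came from BY4741, a haploid laboratory strain of Saccharomyces cerevisiae with deletions at HIS3, LEU2, MET17 and URA3, which all 3 groups share. Growing cells in synthetic complete medium were starved of nitrogen for 1 h (2 libraries), starved of potassium for 1 h (2 libraries) or left untreated for 1 h (2 libraries). Each group has 1 library from batch 1 and 1 from batch 2, made from total RNA with the KAPA mRNA HyperPrep kit. As the labels do not tell whether these were separate cultures, p-values here reflect only library-to-library spread, which may be technical.

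Secreted and membrane proteins enter the ER, fold there with the help of chaperones, and leave in vesicles for the Golgi. When unfolded proteins build up, the kinase and nuclease Ire1 cuts an intron out of HAC1 mRNA in the cytoplasm, and the protein made from the spliced message, the transcription factor Hac1, raises the genes of the unfolded protein response. Cne1 is the yeast relative of calnexin, a chaperone of glycoproteins. Erv46 works with Erv41 as a cargo receptor of the vesicles that cycle between the ER and the Golgi. Yip3 is a membrane protein of such vesicles that binds Rab GTPases, the switches of vesicle traffic. Erg27 is the 3-keto reductase of ergosterol synthesis, a pathway housed largely in the ER membrane.

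Of the 5 rows, 4 lay opposite the gene they were named for, and YFL032W did not. Positions are on R64, where all 5 genes are on the plus strand. YFL032W was placed on chromosome VI at 74872 to 75192, also on the plus strand, with 14 bases inside the first exon of HAC1 (75179 to 76147) and 307 bases before it. It held 0 and 0 reads in the nitrogen libraries, 2 and 0 in the potassium libraries and 2 and 0 in the control libraries. It passed no filter and gives no reading of HAC1; with 0 reads, a count of up to 3 is allowed in each nitrogen library, for counting error only.

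The feature that does lie opposite HAC1 is YFL031C-A, on the minus strand of chromosome VI at 76014 to 76115. It is not among the 5 rows and was added after its values were seen. All 102 of its bases are inside HAC1, 78 in the intron that Ire1 removes and 24 in exon 2. YAL056C-A, of 351 bases, lies on chromosome I at 38696 to 39046, with 277 bases opposite the end of CNE1 (37464 to 38972, 1 exon). YAL042C-A, of 378 bases, lies on chromosome I at 61231 to 61608, with 293 bases opposite the start of ERV46 (61316 to 62563, 1 exon). YNL043C, of 321 bases, lies on chromosome XIV at 545589 to 545909, with 289 bases opposite the second exon of YIP3 (545268 to 545877). YLR101C, of 396 bases, lies on chromosome XII at 342566 to 342961, with 288 bases opposite the end of ERG27 (341810 to 342853, 1 exon).

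The stretches shared by each gene and its opposite feature are shown because most reads discussed below were assigned to features on the other strand of them. They are written 5′ to 3′ in the direction of the gene, from the R64 reference. Capitals mark the part of exon 2 in HAC1, the start codon in ERV46 and the stop codon in CNE1, YIP3 and ERG27.
HAC1: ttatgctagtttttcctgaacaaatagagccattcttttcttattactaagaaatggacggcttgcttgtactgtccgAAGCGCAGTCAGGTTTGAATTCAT
CNE1: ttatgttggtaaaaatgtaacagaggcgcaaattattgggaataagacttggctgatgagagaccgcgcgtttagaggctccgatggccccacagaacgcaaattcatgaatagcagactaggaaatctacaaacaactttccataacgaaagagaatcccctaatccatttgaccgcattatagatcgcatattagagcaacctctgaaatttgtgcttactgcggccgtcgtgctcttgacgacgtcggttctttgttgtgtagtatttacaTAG
ERV46: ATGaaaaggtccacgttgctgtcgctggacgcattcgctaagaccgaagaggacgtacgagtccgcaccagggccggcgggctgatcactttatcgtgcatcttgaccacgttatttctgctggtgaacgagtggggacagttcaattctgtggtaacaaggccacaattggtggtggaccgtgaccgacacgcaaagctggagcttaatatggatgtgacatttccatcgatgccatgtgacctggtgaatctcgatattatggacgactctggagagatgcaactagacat
YIP3: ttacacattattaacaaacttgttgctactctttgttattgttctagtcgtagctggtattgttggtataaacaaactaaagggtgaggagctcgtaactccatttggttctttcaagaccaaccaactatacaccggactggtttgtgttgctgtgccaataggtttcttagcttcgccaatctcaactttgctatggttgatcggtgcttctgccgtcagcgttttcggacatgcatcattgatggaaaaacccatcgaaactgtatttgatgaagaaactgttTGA
ERG27: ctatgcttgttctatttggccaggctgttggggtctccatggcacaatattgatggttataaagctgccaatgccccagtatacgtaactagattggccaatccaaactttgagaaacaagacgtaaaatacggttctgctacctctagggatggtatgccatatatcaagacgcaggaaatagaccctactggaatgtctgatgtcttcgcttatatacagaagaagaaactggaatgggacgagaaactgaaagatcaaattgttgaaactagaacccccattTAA
Only in HAC1 does the stretch hold intron. Its 78 lower-case bases are the end of the intron, so the feature crosses the 3′ splice site at which exon 2 is joined in the spliced message. The share of G and C was 38.2% in the HAC1 stretch, 43.0% in CNE1, 51.2% in ERV46, 40.5% in YIP3 and 41.7% in ERG27.

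**Figure D1:**
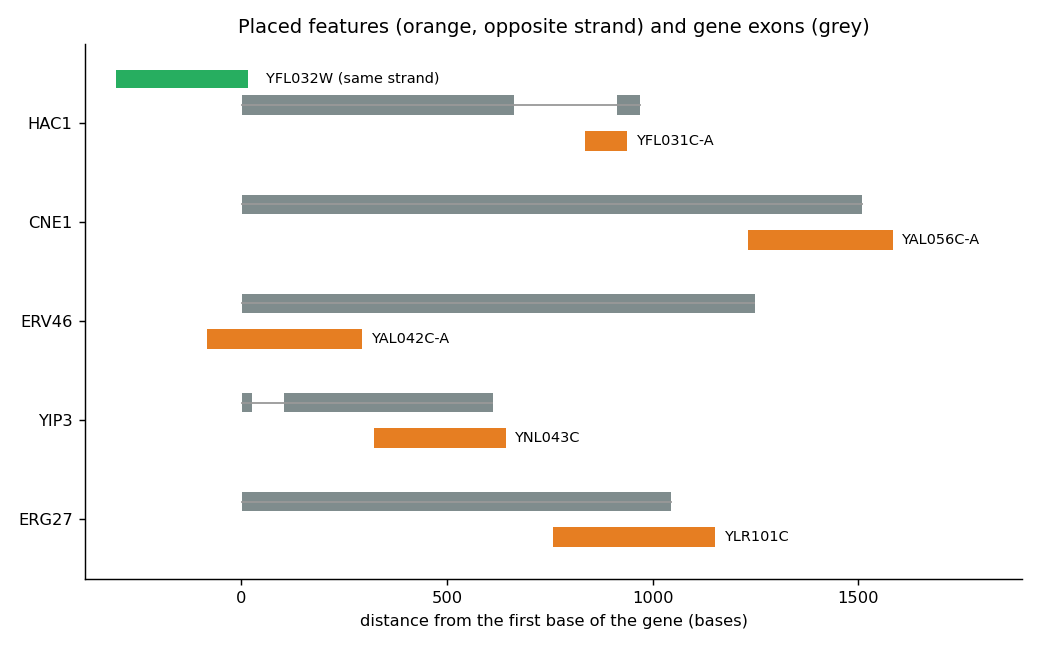
Exons of the 5 genes (grey, introns as lines) and the features placed on them (orange, opposite strand; green, YFL032W on the strand of HAC1), by distance in bases from the first base of the gene. The feature opposite HAC1 covers the end of the intron and the first 24 bases of exon 2, that of ERV46 covers the start of its gene, and the other 3 cover the ends of theirs.

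Reads assigned to the 7127 features ran from 357839 to 425919 per library. LEU2, MET17 and URA3, deleted in the strain, held 0 reads in all 6, and HIS3 held 0 to 7. These counts do not test the deletions, as HAC1 and ERG27, not deleted, held 0 to 7 and 0 to 9 reads under their own names. Features opposite exactly 1 protein-coding gene, 382 in all, took 27.6% and 25.4% of reads in the nitrogen libraries, 49.4% and 40.5% in the potassium libraries, and 59.3% and 54.7% in the control libraries. For this reason 2 scalings were set side by side. TMM, a trimmed mean over all 2325 features tested, is the main one, and the same method over the 349 tested opposite features alone is called opposite-feature scaling. Relative to TMM, it shifts the median log2 fold change over all tested features up by 1.32 for nitrogen against control, 0.24 for potassium against control and 1.09 for nitrogen against potassium. CPM, the read count scaled to library size, uses TMM unless opposite-feature scaling is named, and a feature is called at an adjusted p below 0.05 by edgeR's quasi-likelihood test, adjusted over all tested features.

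On average over the 6 libraries, reads under the 5 opposite features were far more numerous than reads under the genes' own names. An exception was YIP3 in potassium library 1, with 133 reads under its own name and 123 under the opposite feature. Per base and averaged over the 6 libraries, the opposite feature exceeded the gene 649-fold for HAC1, 37.1-fold for CNE1, 104-fold for ERV46, 6.89-fold for YIP3 and 269-fold for ERG27. The library kit keeps the strand of the RNA, and the strand setting of the quantifier is not given in the sources used here. Whether the reads under an opposite feature are those of the gene's message was not tested. Below, "opposite HAC1" stands for reads under YFL031C-A, and likewise for the other 4 genes. In these bulk libraries, fewer cells expressing a gene and less RNA per cell cannot be told apart.

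Per kilobase of full feature length, the order of the 5 changed between groups in 1 respect, the place of YIP3, and that change depends on the length used. In the control libraries the order was the same in both: HAC1 at 7235 and 7116 CPM per kb, YIP3 at 6409 and 5094, ERG27 at 2396 and 2791, ERV46 at 2096 and 1780, and CNE1 at 591 and 813. In the nitrogen libraries the level opposite YIP3 was 1203 and 2113 CPM per kb and stood below ERG27 at 2483 and 2403. In the potassium libraries it was 1060 and 1639 and stood below both ERG27 and ERV46, the second at 1207 and 1700, and these 2 overlapped between libraries. All other neighbours in these orders were separated in both libraries of a group. HAC1 was first and CNE1 last in all 6 libraries. The order within a library does not depend on the scaling, but it does depend on the length. The deposited TPM values divide by effective lengths of 4.54 bases for the HAC1 feature, 72.2 for YIP3, 129 for ERV46 and 147 for ERG27. In TPM, YIP3 had 1281 and 1884 in the nitrogen, 442 and 332 in the potassium and 1670 and 1106 in the control libraries. ERG27 had 1601 and 1298 TPM in the nitrogen, 628 and 245 in the potassium and 378 and 367 in the control libraries. By that measure YIP3 stood below ERG27 only in library 1 of each starvation, and above ERV46 in all 6 libraries. HAC1 had 5062 to 20343 TPM and was first in all 6 here too, a place that rests on its divisor of 4.54 bases. In plain reads HAC1 stood below ERG27 in every library.

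**Figure D2:**
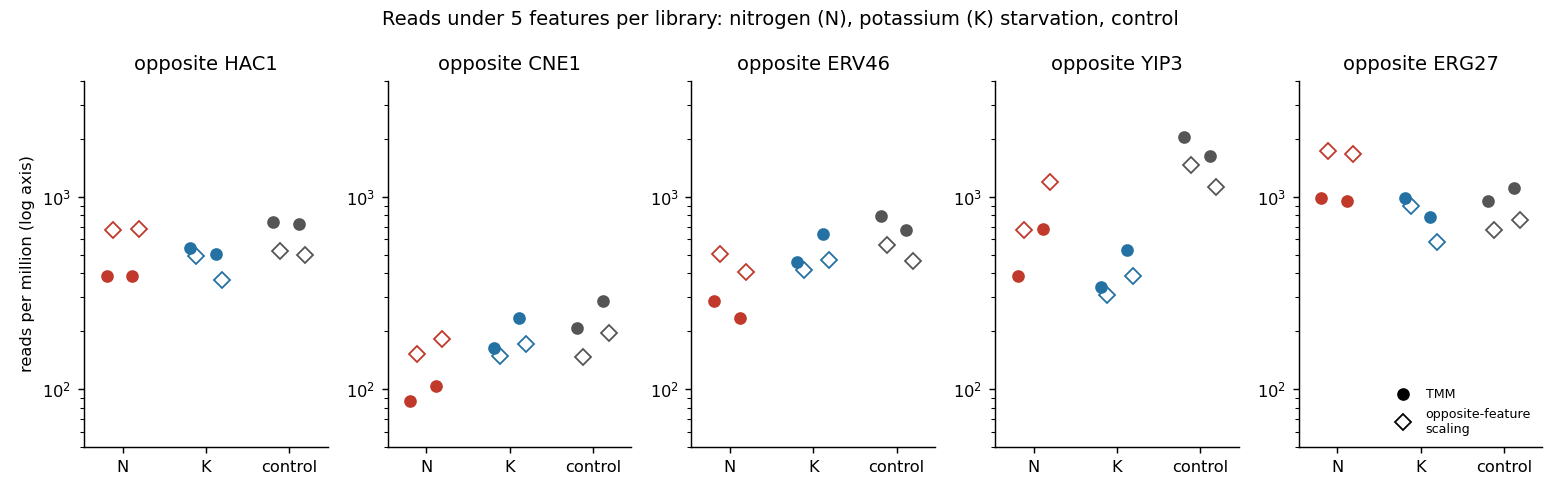
CPM (log axis) under the features opposite each of the 5 genes in nitrogen-starved (N), potassium-starved (K) and control libraries, 1 point per library and scaling. Opposite YIP3, both potassium libraries lie below both control libraries with either scaling; opposite ERG27, the nitrogen libraries stand above the control libraries with opposite-feature scaling only.

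Nitrogen starvation was compared with no treatment first. Opposite CNE1, ERV46 and YIP3, and also HAC1, levels were lower in nitrogen starvation under TMM, with log2 fold changes of -0.92 to -1.80, and ERG27 did not pass. With opposite-feature scaling none of the 5 was called lower, and ERG27 was called higher. So 3 of the 4 tested rows were lower under TMM, where 20.4% of all tested features and 59.9% of tested opposite features were. Under opposite-feature scaling edgeR called 0 of 4 lower, also at an unadjusted p below 0.05 (DESeq2, on its own size factors, called 3), and 1 higher, where 57.8% of all tested and 28.9% of opposite features were called higher. The opposite features as a whole had a median log2 fold change of -1.18 under TMM and 0.15 under opposite-feature scaling. The second value is held near 0 by the scaling itself, which is computed over these same features.

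Opposite HAC1, the gene of the unfolded protein response factor, the reads numbered 298 and 287 in the nitrogen libraries against 217 and 178 in the control libraries. These are 386 and 388 CPM against 738 and 726 CPM, or 676 and 681 against 525 and 499 CPM with opposite-feature scaling. The groups did not overlap with either scaling, but the nitrogen libraries lay below the controls under TMM and above them under opposite-feature scaling. Under TMM, 33.3% of all tested and 74.8% of opposite features were lower without overlap, and under opposite-feature scaling 74.5% and 46.7% were higher. The log2 fold change was -0.92 (SE 0.19, adjusted p = 0.0049) under TMM, and 0.40 (SE 0.21, adjusted p = 0.11) under opposite-feature scaling. Within batches it was -0.93 and -0.90 under TMM. The call was lost when control library 1 or nitrogen library 2 was left out (highest adjusted p 0.058) and without the filter on low counts (adjusted p = 0.15).

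Opposite CNE1, the calnexin gene, there were 67 and 77 reads in the nitrogen libraries against 61 and 70 in the control libraries. Under TMM the levels were 86.8 and 104 CPM in the nitrogen libraries and 207 and 285 CPM in the control libraries, means of 95.5 ± 12.3 and 246 ± 55.2 CPM (SD, n = 2 each), with no overlap. With opposite-feature scaling they were 152 and 183 CPM against 148 and 196 CPM, and the groups overlapped. The log2 fold change was -1.36 (SE 0.31, adjusted p = 0.0074) under TMM and -0.04 (SE 0.30, adjusted p = 0.92) under opposite-feature scaling. The call under TMM was lost without control library 2 (adjusted p = 0.058).

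Opposite ERV46, the cargo receptor gene, there were 222 and 172 reads in the nitrogen libraries against 233 and 165 in the control libraries. Under TMM these are 288 and 233 CPM in the nitrogen libraries and 792 and 673 CPM in the control libraries, means of 260 ± 38.7 and 733 ± 84.5 CPM (SD, n = 2 each). With opposite-feature scaling they are 503 and 408 CPM against 563 and 463 CPM. Only under TMM did the groups separate. The log2 fold change was -1.49 (SE 0.25, adjusted p = 0.0015) under TMM and -0.17 (SE 0.22, adjusted p = 0.50) under opposite-feature scaling. The call under TMM held in all 6 fits that left out 1 library.

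Opposite YIP3 the 2 nitrogen libraries differed from each other, with 298 and 501 reads against 605 and 401 in the control libraries. These are 386 and 678 CPM against 2057 and 1635 CPM, and 676 and 1188 against 1463 and 1125 CPM with opposite-feature scaling, where the groups overlap. The log2 fold change was -1.80 (SE 0.32, adjusted p = 0.0024) under TMM and -0.47 (SE 0.29, adjusted p = 0.17) under opposite-feature scaling. Within batch 1 it was -2.41 and within batch 2 -1.27 under TMM, or -1.11 and 0.08 under opposite-feature scaling. The call under TMM held in all 6 fits that left out 1 library (adjusted p up to 0.016).

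Opposite ERG27, the sterol reductase gene, the nitrogen libraries held 759 and 703 reads against 279 and 271 in the control libraries. As opposite HAC1, the nitrogen libraries held more reads than the controls before any scaling. Under TMM the levels were 983 and 952 CPM in the nitrogen libraries and 949 and 1105 CPM in the control libraries, and the groups overlapped. With opposite-feature scaling they were 1721 and 1667 CPM against 675 and 760 CPM, means of 1694 ± 37.8 and 717 ± 60.4 CPM (SD, n = 2 each), with the nitrogen libraries above the controls. The log2 fold change was -0.09 (SE 0.21, adjusted p = 0.76) under TMM and 1.24 (SE 0.24, adjusted p = 0.0022), or 2.36-fold, under opposite-feature scaling. Of the 349 tested opposite features, 60 had a higher log2 fold change than ERG27 in nitrogen starvation.

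Potassium starvation was compared with no treatment next. Of the 4 tested rows YIP3 fell, under both scalings, and the other 3 did not pass, nor did HAC1. Lower calls were made for 4.6% of all tested features and 15.5% of opposite features under TMM, and for 3.57% and 13.8% under both scalings. Opposite YIP3 there were 123 and 122 reads in the potassium libraries against 605 and 401 in the control libraries. These are 340 and 526 CPM against 2057 and 1635 CPM, and 310 and 386 against 1463 and 1125 CPM with opposite-feature scaling. Both potassium libraries lay below both control libraries in reads and under either scaling; 27.6% of all tested and 42.7% of opposite features were lower without overlap under TMM. YIP3 was 4.29-fold lower (log2 -2.10, SE 0.34, adjusted p = 0.0081), or log2 -1.90 (SE 0.30, adjusted p = 0.0075) with opposite-feature scaling. The difference was -2.60 within batch 1 and -1.64 within batch 2. The call held in all 6 fits that left out 1 library (adjusted p 0.0016 to 0.036). Of the 349 tested opposite features, 338 had a higher log2 fold change than YIP3 under TMM, and 339 under opposite-feature scaling.

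The other 4 readings did not pass in potassium starvation. Opposite HAC1 the potassium libraries held 195 and 117 reads, or 539 and 505 CPM, against 217 and 178 reads, or 738 and 726 CPM, in the controls. The groups did not overlap, and the log2 fold change was -0.49 (SE 0.20, adjusted p = 0.16), or -0.25 (SE 0.21, adjusted p = 0.50) with opposite-feature scaling. Opposite CNE1 the potassium libraries held 59 and 54 reads, or 163 and 233 CPM, which overlapped the 207 and 285 CPM of the controls. The log2 fold change was -0.32 (SE 0.31, adjusted p = 0.55). Opposite ERV46 there were 165 and 149 reads, or 456 and 643 CPM, in the potassium libraries, below the 792 and 673 CPM of the controls. There it was -0.42 (SE 0.24, adjusted p = 0.31), with -0.80 in batch 1 and -0.07 in batch 2. Opposite ERG27 the 2 potassium libraries held 356 and 183 reads, or 985 and 789 CPM, overlapping the 949 and 1105 CPM of the controls, and the log2 fold change was -0.21 (SE 0.22, adjusted p = 0.58), or 0.04 (SE 0.24, adjusted p = 0.95) with opposite-feature scaling.

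Nitrogen starvation was then compared with potassium starvation directly, in the same 4 starved libraries. Under TMM, CNE1 and ERV46 were lower in nitrogen starvation, with log2 -1.04 (SE 0.31, adjusted p = 0.027) and -1.07 (SE 0.25, adjusted p = 0.0085). These are 2 of 4 tested rows, where 19.4% of all tested and 57.9% of opposite features were called lower. Under opposite-feature scaling neither passed (log2 0.07 and 0.04), while YIP3 and ERG27 were higher, at 1.42 (SE 0.30, adjusted p = 0.0042) and 1.20 (SE 0.24, adjusted p = 0.0033), and so was HAC1, at 0.65 (SE 0.21, adjusted p = 0.026). Higher calls were then made for 49.4% of all tested and 20.3% of opposite features. Under TMM the log2 fold changes of YIP3, ERG27 and HAC1 were 0.31 (adjusted p = 0.46), 0.12 (0.66) and -0.43 (0.10). None of the 5 was called in this comparison under both scalings. The TMM call of CNE1 was lost without either nitrogen library or without potassium library 2 (adjusted p up to 0.14), and that of ERV46 without nitrogen library 2 or potassium library 2 (up to 0.090). Both calls were also lost without the filter on low counts (adjusted p = 0.23 and 0.13), and that of CNE1 in DESeq2 (adjusted p = 0.13).

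**Figure D3:**
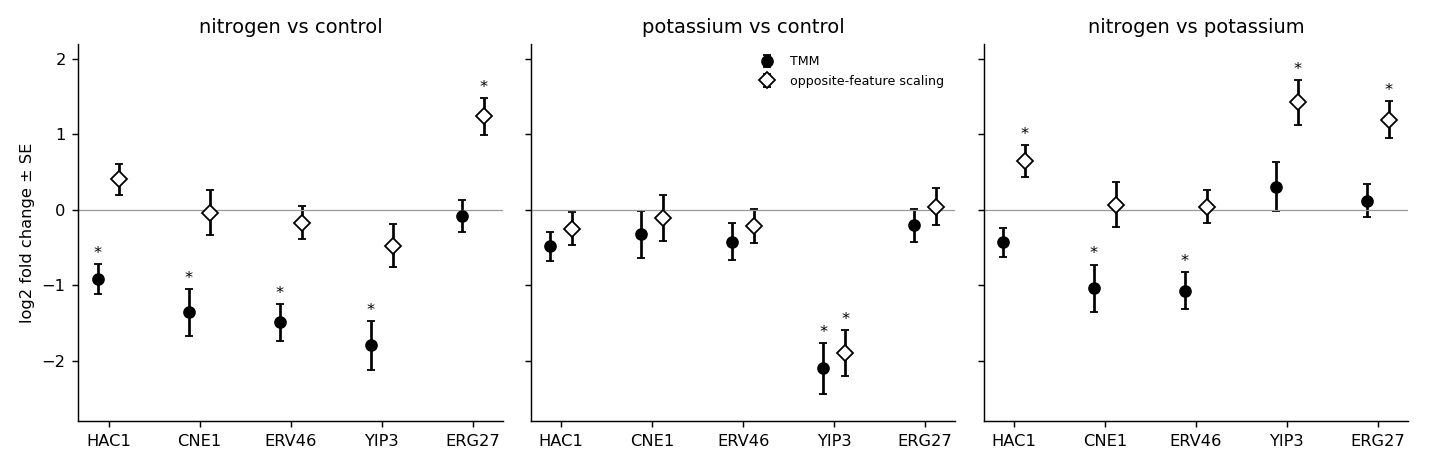
Log2 fold changes (± SE) of the features opposite the 5 genes in the 3 comparisons, under TMM (filled) and opposite-feature scaling (open); an asterisk marks an adjusted p below 0.05 by edgeR's quasi-likelihood test. YIP3 in potassium starvation, at -2.10 and -1.90, is marked under both scalings.

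Ratios of reads between 2 of these features within the same library do not depend on the scaling. The reads opposite YIP3 divided by those opposite ERG27 were 0.393 and 0.713 in the nitrogen libraries, 0.346 and 0.667 in the potassium libraries, and 2.17 and 1.48 in the control libraries. Both starvations thus lay below the controls, on average 3.39-fold in nitrogen and 3.73-fold in potassium starvation. The nitrogen value depends on the partner chosen. Relative to CNE1 and ERV46, YIP3 was 1.40- and 1.27-fold lower in nitrogen starvation, and the groups overlapped. In potassium starvation it was 3.47- and 3.22-fold lower, without overlap. Relative to HAC1 it was 1.90-fold lower in nitrogen and 3.09-fold lower in potassium starvation, both without overlap. The ratio of HAC1 to ERG27 was 0.393 and 0.408 in the nitrogen libraries, 0.548 and 0.639 in the potassium libraries and 0.778 and 0.657 in the control libraries. The ratio of CNE1 to ERV46, in contrast, was 0.302 and 0.448 in the nitrogen, 0.358 and 0.362 in the potassium and 0.262 and 0.424 in the control libraries, and the 3 groups overlapped. Of the 10 ratios among the 5 features, 7 separated nitrogen from control libraries without overlap, 5 separated potassium from control, and 7 nitrogen from potassium. Among all pairs of tested opposite features with reads in every library the shares were 84.7%, 73.4% and 78.3%. An exact two-sided permutation test of 2 libraries against 2 cannot go below p = 0.333, so no test is given for single ratios.

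**Figure D4:**
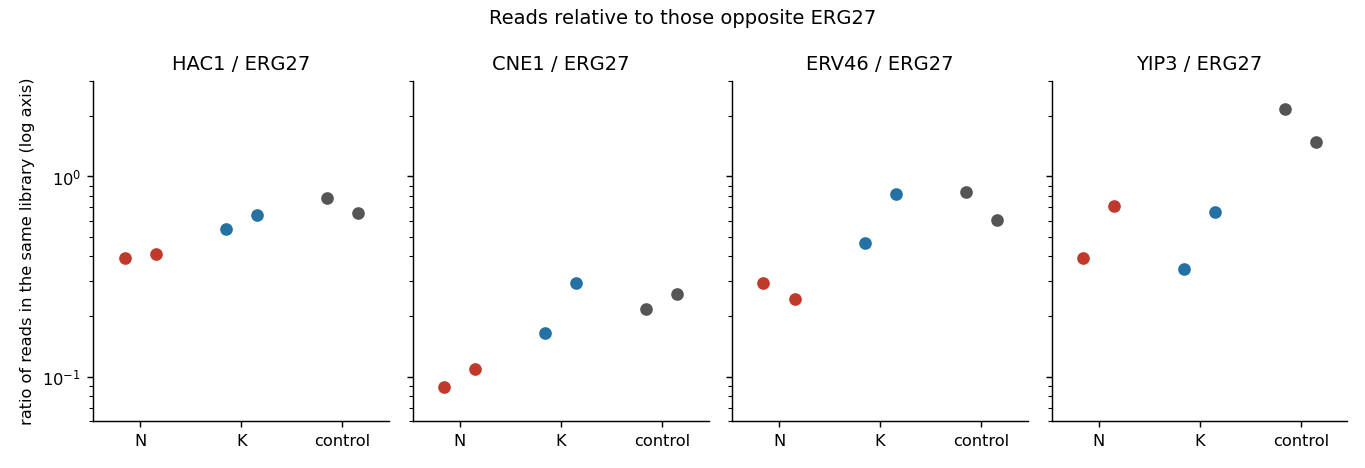
Reads opposite HAC1, CNE1, ERV46 and YIP3 divided by the reads opposite ERG27 in the same library (log axis), for nitrogen-starved (N), potassium-starved (K) and control libraries, 1 point per library. The nitrogen libraries lie below the controls in all 4 panels; the potassium libraries lie below the controls opposite HAC1 and YIP3.

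The genes' own names held few reads, apart from YIP3. Its own name, YNL044W, held 172 and 79 reads in the nitrogen libraries, 133 and 49 in the potassium libraries and 29 and 30 in the control libraries. Of the reads of YIP3 and its opposite feature together, its own name took 36.6% in nitrogen library 1 (95% exact binomial interval 32.2 to 41.1) and 13.6% in nitrogen library 2 (10.9 to 16.7). It took 52.0% in potassium library 1 (45.6 to 58.2) and 28.7% in potassium library 2 (22.0 to 36.1), against 4.57% in control library 1 (3.08 to 6.50) and 6.96% in control library 2 (4.75 to 9.79). All 4 starved libraries lay above both controls, and library 1 lay above library 2 in both starvations. Both strands together held 470 and 580 reads in the nitrogen libraries, 256 and 171 in the potassium libraries and 634 and 431 in the control libraries. Over all pairs with at least 20 reads the median own-name share was highest in nitrogen starvation, at 3.23% and 3.46%. It was 2.08% and 1.08% in the potassium and 1.25% and 1.06% in the control libraries. The share of YIP3, unlike this median, was higher in potassium than in nitrogen starvation within each library number, though the groups overlapped. Of 301 pairs with at least 20 reads in every library, 47.2% had both nitrogen libraries above both controls, 22.3% had both potassium libraries above them, and 14.6% had all 4 starved libraries above them. In potassium starvation the log2 fold change under YNL044W was 1.41 (SE 0.43, adjusted p = 0.080), or 1.67 (SE 0.47, adjusted p = 0.060) with opposite-feature scaling. In nitrogen starvation it was 0.58 (SE 0.43, adjusted p = 0.29), or 1.90 (SE 0.47, adjusted p = 0.0069) with opposite-feature scaling. With that scaling 57.8% of all tested features were called higher in nitrogen starvation, and the median log2 fold change over all tested features was 1.60.

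For CNE1 the own name, YAL058W, held 18 and 20 reads in the nitrogen libraries, 3 and 3 in the potassium libraries and 1 and 0 in the control libraries. Its share of the reads of the pair was 21.2% (interval 13.1 to 31.4) and 20.6% in the nitrogen libraries, 4.84% and 5.26% in the potassium libraries, and 1.61% and 0% in the control libraries, where 0 of 70 reads allows up to 4.29% (3 reads). Reads under YAL058W were called higher in nitrogen starvation under both scalings, at log2 3.58 (SE 0.91, adjusted p = 0.012) and 4.78 (SE 0.84, adjusted p = 0.0013), where 25.8% and 57.8% of all tested features were called higher. YAL058W passed the filter on low counts through the nitrogen libraries alone, so it could not have been called lower there. Its fit rests on 1 read in the control libraries, and its log2 value under TMM ran from 2.79 to 6.58 when 1 library was left out. The TMM call was lost when control library 2 or either of the nitrogen libraries was left out (highest adjusted p 0.098), and in DESeq2 (adjusted p = 0.082). The own names of HAC1, ERV46 and ERG27 held at most 7, 16 and 9 reads in any library and did not pass the filter for the edgeR fit of all 6 libraries. DESeq2 gave adjusted p = 0.27 for ERV46 and 0.85 for ERG27 in nitrogen starvation against control. The intervals cover counting error only.

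**Figure D5:**
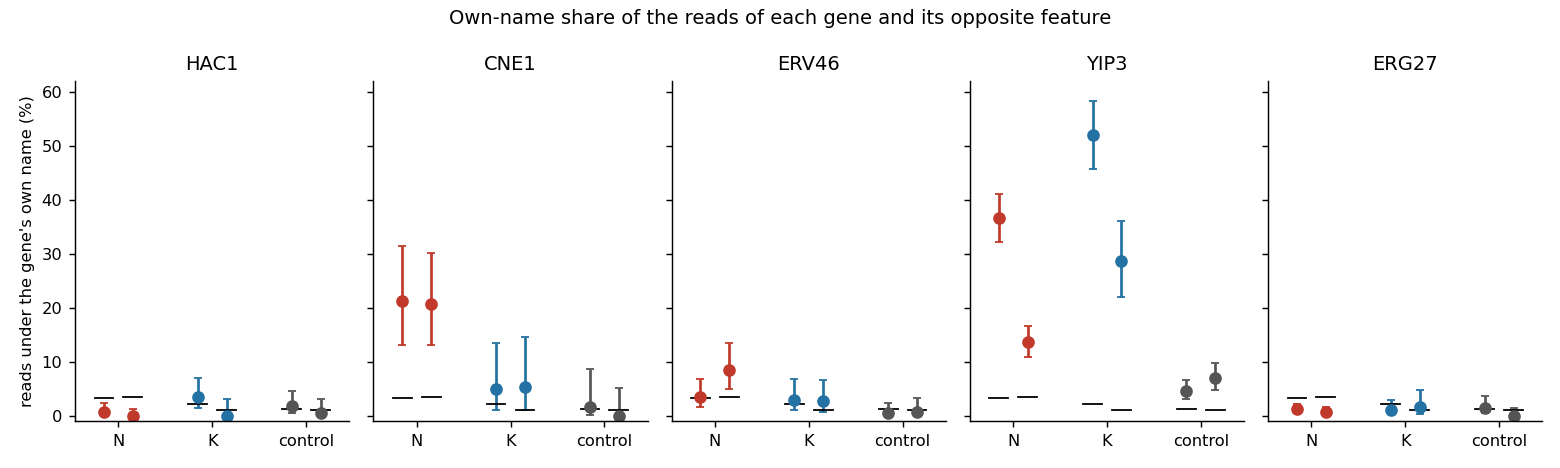
Share of reads under the gene's own name, of the reads under that name and under the opposite feature together, per library (bars: 95% exact binomial intervals, counting error only); black ticks mark the median over all such pairs in that library. YIP3 stands at 13.6% to 52.0% in the starved libraries and CNE1 at about 21% in the nitrogen libraries.

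A set of 6 lists with 159 genes, covering ER folding, N-glycosylation, ER translocation, ER to Golgi transport, Yip and Rab proteins and sterol synthesis, put these genes beside others of the pathway. Of these genes, 10 had a tested opposite feature, the 5 above among them. In nitrogen starvation 9 of these 10 were called lower under TMM, against 59.9% of opposite features (20.4% of all tested features). With opposite-feature scaling 3 were lower, against 25.8% (7.48% of all tested features), and 1 higher, against 28.9% (57.8%). The 3 that fell under both scalings were those opposite SEC61, the channel of the ER membrane (YLR379W, log2 -2.69 and -1.36 with opposite-feature scaling), SRP54, of the signal recognition particle (YPR087W, -2.08 and -0.76), and GOS1, a Golgi SNARE (YHL030W-A, -2.53 and -1.21). OST2, a subunit of the enzyme that attaches N-glycans, had log2 -1.80 under TMM and -0.47 (adjusted p = 0.11) under opposite-feature scaling. YIP4, another Yip protein, had -0.80 and 0.52 (adjusted p = 0.055). Reads opposite SEC61 numbered 183 and 197 in the nitrogen libraries, 296 and 335 in the potassium libraries and 400 and 463 in the control libraries. In potassium starvation 1 of the 10, YIP3, was called, lower under both scalings, as were 13.8% of opposite features (3.57% of all tested features). YIP4 had log2 0.51 (adjusted p = 0.15), OST2 -0.71 (0.081), SEC61 -0.53 (0.30), SRP54 -0.42 (0.29) and GOS1 -0.50 (0.23).

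Under the genes' own names 37 genes of the lists were tested. In nitrogen starvation 14 were called higher and 0 lower under TMM (37.8% higher, against 25.8% of all tested features), and 29 higher and 0 lower with opposite-feature scaling (78.4%, against 57.8%). DESeq2 called 9 higher and 0 lower, and 0 were lower at an unadjusted p below 0.05. Some of the 37, SEC24 and RET2 below among them, passed the filter on low counts through the nitrogen libraries alone. These could not be called lower in nitrogen starvation, whether against control or potassium starvation. The counts of higher and lower calls are thus partly set by the filter. By list, under TMM, 3 of 7 ER folding genes were called higher, 2 of 7 of N-glycosylation, 1 of 3 of translocation, 4 of 9 of ER to Golgi transport, 0 of 2 of the Yip and Rab proteins and 4 of 9 of sterol synthesis. Reads under HMG2, HMG-CoA reductase, were 359 and 310 in the nitrogen libraries, 39 and 41 in the potassium libraries and 34 and 29 in the control libraries, which gives log2 1.92 (SE 0.29, adjusted p = 9.7e-04) for nitrogen against control. SEC24, a coat subunit of ER vesicles, held 82 and 51 reads in the nitrogen libraries, 3 and 0 in the potassium libraries and 2 and 0 in the control libraries (adjusted p = 0.0037). RET2, of the COPI coat, held 96 and 61 reads in the nitrogen libraries, 2 and 1 in the potassium libraries and 0 and 2 in the control libraries (adjusted p = 0.0015). JEM1, an ER co-chaperone, held 291 and 183 reads in the nitrogen libraries, 62 and 17 in the potassium libraries and 38 and 24 in the control libraries (adjusted p = 0.018). These genes were taken from the called own names with the smallest p, so their direction follows from the choice. In potassium starvation edgeR called 0 of the 37 under either scaling. At an unadjusted p below 0.05 under TMM, 6 were higher and 0 lower. DESeq2 called 0, and 4.73% of all tested features were called higher under TMM. Own names such as SEC24 and RET2, with 0 to 3 reads per potassium or control library, could hardly be called here. This 0 therefore does not set potassium apart from nitrogen starvation. In nitrogen against potassium starvation 11 were called higher and 2 lower under TMM, where 23.3% of all tested features were called higher and 19.4% lower. With opposite-feature scaling 23 were called higher, against 49.4%, and 0 lower, with 1 lower at an unadjusted p below 0.05; DESeq2 called 8 higher and 1 lower. The 2 lower under TMM were CWH41, the first glucosidase of N-glycan trimming (log2 -2.24, adjusted p = 0.0068), and ERG10, acetyl-CoA acetyltransferase (-1.62, adjusted p = 0.024), at -1.15 (adjusted p = 0.070) and -0.54 (0.37) with opposite-feature scaling. CWH41 held 10 and 11 reads in the nitrogen libraries, 22 and 17 in the potassium libraries and 4 and 8 in the control libraries. Whether reads under the own names come from these genes' messages was not tested.

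The opposite features whose pattern over the 6 libraries was nearest to each of the 5 were found by the root mean square distance of centred log2 CPM. For HAC1 they were those opposite ARE1, TRP1 and MTO1 (0.07, 0.10 and 0.13, where the median over 348 features was 0.56). For CNE1 they were SCD6, YNL108C and ILS1 (0.07, 0.11 and 0.13), and for ERV46 they were EMC1, SSM4 and TAD3 (0.11, 0.12 and 0.14). For ERG27 they were STE7, PEX2 and APC1 (0.17, 0.17 and 0.19). For YIP3 the nearest, PSD1, RHO2 and MAE1, stood at 0.30, 0.40 and 0.42, where the median was 1.02. The feature opposite PSD1, an enzyme of phospholipid synthesis, had 203 and 217 CPM in the nitrogen, 207 and 302 in the potassium and 966 and 722 in the control libraries.

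The 500 bases before the start codon of the 5 genes were searched on both strands for 3 motifs that do not overlap each other. CAGNGTG, the core of the element read by Hac1, was found before ERG27 and before none of the other 4, where 10.2% of 6000 genes hold it. The match starts 432 bases before the ERG27 start codon on chromosome XII, within 341367 to 341395, shown with the motif in capitals.
ERG27 element: gacacaatcaaCAGCGTGgagggcctgga
TCGTATA, a sterol element read by Upc2 and Ecm22, was found before ERV46 and not before ERG27, where 7.0% of the genes hold it. Its 2 matches lie on chromosome I within 61246 to 61274, on the plus strand, and within 61161 to 61189, on the minus strand.
ERV46 element, plus strand match: agttttatgtcTCGTATAcatgcggagta
ERV46 element, minus strand match: tcaagtcactaTATACGActtgaacatca
GATAAG, the site of the GATA factors of nitrogen regulation, was found before 0 of the 5, where 22.8% of the genes hold it. A match describes letters in the sequence and is not a site of binding.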

How the data were processed

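Poly(A) RNA was measured in 6 libraries, 2 per group, with the mRNA kit named in the labels' protocols. Each deposited file gives 1 estimated count per feature, as made by the authors; its columns are salmon's, per the file headers. STAR 2.7.3a, DESeq2 and build R64 are named in the submitters' processing notes; for the quantifier, neither version nor strand setting is stated there. The deposited TPM values are length-normalised by the quantifier, per the file headers. A deposited table holds a signal, estimated counts divided by 1 size factor per library by the authors; multiplied back, 100% of its values were whole and equal to the rounded estimated counts within 0.001 reads.

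Of 7127 features, 6047 were placed on R64 from the annotation. Another 601 were placed at the single open reading frame whose length matched, and 479 were not placed. Among 5671 annotated genes this method found 5537 once, of which 5529 were at the annotated position. Opposite features are those with 50% or more of their bases, and no fewer than 100, facing a single protein-coding gene.

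Rounded estimated counts entered edgeR 4.0.16 in R 4.3.3, with filterByExpr, TMM and the quasi-likelihood test, in 1 fit of all 6 libraries (3 residual degrees of freedom) with Benjamini-Hochberg adjustment over 2325 features. The test was first run on simulated data. The alternatives were other scalings, no filter, DESeq2 1.42.0, a block for the batch number, and leaving out each library. The batch label gives the replicate numbers, so numbers pair libraries; the deviations of same-numbered libraries correlated at 0.05, -0.02 and 0.06 over 1220 features. Intervals are exact binomial at 95%. Reads assigned to features numbered 357839 to 425919 per library, which limits low features to a floor of 3 reads.

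Named genes were the members, every list gene with a tested opposite feature, up to 3 called own names per list and comparison with the smallest p (a few of which are described), and the 3 nearest features per member. The members and lists were chosen with earlier results of these data known.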

Additional observations from a re-analysis of the deposited data

How the results depend on the processing

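Of 180 fold changes recomputed under the alternatives, 140 kept their direction and their side of the threshold, and of 72 counts 61 stayed within 1.5 times of the main one. A count can stay alike while the rows change. For nitrogen against potassium, TMM called 2 rows, CNE1 and ERV46, as lower. Library size alone and opposite-feature scaling also called 2, but these were YIP3 and ERG27, as higher. Under library size alone and under opposite-feature scaling, the log2 fold change in nitrogen starvation against control was 0.77 and 0.40 opposite HAC1, 0.34 and -0.038 opposite CNE1, 0.20 and -0.17 opposite ERV46, -0.13 and -0.47 opposite YIP3, and 1.62 and 1.24 opposite ERG27. Each of these scalings called 1 of the 4 rows, ERG27, as higher. TMM called the other 3, CNE1, ERV46 and YIP3, as lower. For potassium against control the values opposite ERG27 were 0.15 and 0.043, and library size alone called 116 features, against 217. For nitrogen against potassium they were 0.94 and 0.65 opposite HAC1, 0.40 and 0.069 opposite CNE1, 0.38 and 0.042 opposite ERV46, 1.75 and 1.42 opposite YIP3, and 1.47 and 1.20 opposite ERG27. Without the filter on low counts, nitrogen against control gave -0.55 opposite HAC1 and 0.28 opposite ERG27, and nitrogen against potassium gave -0.65 opposite CNE1 and -0.67 opposite ERV46, with 0 of 4 rows called by edgeR. DESeq2 gave 0.15 opposite ERG27 against control and -0.82 opposite CNE1 against potassium, with 1 row called. The causes were not tested.

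With the replicate block, nitrogen against control called 1043 features, against 1075, potassium against control 231, against 217, and nitrogen against potassium 967, against 992; the block changed no call among the 5 features.

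Leaving out 1 library at a time leaves a lone library in its group, assumed to vary like the others. The nitrogen against control values ranged from -0.98 to -0.86 opposite HAC1, -1.57 to -1.12 opposite CNE1, -1.65 to -1.29 opposite ERV46, -2.20 to -1.44 opposite YIP3 and -0.18 to 0.028 opposite ERG27, with 768 to 1142 features and 2 to 3 rows called. For potassium against control they ranged from -2.44 to -1.75 opposite YIP3, which was called in every such fit, and 99 to 256 features were called (99 when potassium library 1 was left out, 142 for control library 1 and 116 for control library 2). For nitrogen against potassium they ranged from -1.40 to -0.76 opposite CNE1, -1.42 to -0.79 opposite ERV46, -0.10 to 0.66 opposite YIP3 and -0.013 to 0.21 opposite ERG27, with 672 to 1034 features called and 0 to 2 rows (1 without nitrogen library 1, 0 without nitrogen library 2 or potassium library 2). At this depth YFL032W and the own names of HAC1, ERV46 and ERG27 did not pass the filter on low counts in the fit of all 6 libraries. The own names of ERV46 and ERG27 passed it in some of the fits that left out 1 library.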
